A study of Mus musculus with 6 samples.

Results

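The genes that define dopamine, noradrenaline, serotonin and acetylcholine neurons were examined in whole brain. They were chosen by gene symbol as 10 transcripts, and 9 of them had a row among the 37310 genes of the count table. The exception was *Slc18a3*, the vesicular acetylcholine transporter, which has no gene of that name in the GENCODE vM1 annotation and was not analysed here. Whole brains came from 12-week-old male mice of 2 genotypes, with 3 libraries of each. *Adar1* E861A/E861A *Ifih1*-/- animals carry a germline point mutation in every cell that abolishes the editing activity of ADAR1, the enzyme that converts adenosine to inosine in double-stranded RNA. *Adar1*+/+ *Ifih1*-/- animals were the controls, so both genotypes lack *Ifih1* (the gene for MDA5, a cytosolic sensor of double-stranded RNA), and no group with intact MDA5 was compared. The question was whether loss of ADAR1 editing changed the transcripts of these neurons when MDA5 was absent.

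These neurons are few, sit in small nuclei and send axons across the whole brain. Dopamine is made from tyrosine by tyrosine hydroxylase (*Th*) and aromatic L-amino acid decarboxylase (*Ddc*). Noradrenaline neurons of the hindbrain convert dopamine further with dopamine beta-hydroxylase (*Dbh*), and serotonin neurons of the raphe nuclei start from tryptophan with tryptophan hydroxylase (*Tph2*) and share *Ddc*. All monoamine neurons load vesicles with the transporter encoded by *Slc18a2*, and each type recovers its transmitter through a membrane transporter, *Slc6a3* for dopamine, *Slc6a2* for noradrenaline and *Slc6a4* for serotonin. Acetylcholine is made by choline acetyltransferase (*Chat*) in the basal forebrain, striatum and brainstem. Dopamine neurons lie in the midbrain, hypothalamus and olfactory bulb, and those of the bulb express *Th* with little *Slc6a3*.

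The promoters of 9 of the 10 members were listed by RefSeq on the GRCm38.p6 build, whereas the counts rest on NCBIM37. Each promoter spanned 250 bases before and 50 after the start. They were searched on both strands for the cyclic AMP response element TGACGTCA, the NR4A binding element AAAGGTCA and the TATA box TATAAA. These letters occur in 1.79%, 1.51% and 13.6% of all 32851 promoters of the same length, respectively. The windows with a match are shown, and *Th* and *Slc18a2* held the same element. Whether any element bears on the levels was not tested. Capitals mark the match, and each window is printed 5′ to 3′ on the strand of the gene.
*Th*, minus strand, chr7:142900022-142900051: cagaggggcttTGACGTCAgcctggccttt
*Slc18a2*, plus strand, chr19:59260863-59260892: agcgctgtccgTGACGTCAgagccggactg
*Tph2*, minus strand, chr10:115185035-115185064: ctcagtcactcaTATAAAggaacacgggga
*Ddc*, minus strand, chr11:11898199-11898228: gctacacgcctTGACCTTTataccagcaga
The element began 45 bases before the start in *Th* and 4 bases before it in *Slc18a2*. The TATA box of *Tph2* began 30 bases before the start. The NR4A element of *Ddc* lay on the opposite strand, 73 bases before one of its 2 listed starts, and overlapped a TATA box on that strand. A match describes letters in the window and shows no binding.

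Libraries held 26853488 to 38076753 counts, and *Adar1* E861A replicates 1 and 3 were the least deep. *Adar*, the locus of the point mutation, was at 153 to 166 CPM (counts of a gene per 1000000 counts of its library) in the mutant and 115 to 175 CPM in the control libraries, and its counts do not test a point mutation. Markers of neurons, glia and vessels were present in every library. Of 11 such genes 7 had a log2 fold change below 0 and edgeR called 0. Over all 13649 genes tested, 1230 had an unadjusted p-value under 0.05 in edgeR, and among these markers 3 did. These were *Cldn5* of endothelium at -0.39, lowest in *Adar1* E861A replicate 1, *Gad1* of GABA neurons at -0.14 and *Rbfox3* of neurons in general at -0.11. Their part in the members' values was not tested. Pituitary transcripts stood apart in *Adar1* E861A replicate 1, with 8416 counts of *Gh*, which encodes growth hormone, against 0 to 47 in the other libraries. Values below are CPM scaled by the trimmed mean of M values (TMM) unless stated, and CPM of different genes are not compared. In a bulk sample, fewer cells of a type and less RNA per cell cannot be told apart.

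None of the 9 transcripts differed between genotypes at an adjusted p-value under 0.05. In edgeR's quasi-likelihood test, 8 members passed the filter of 2 CPM in all libraries of either genotype, and 0 of them were called, against 0.506% of the 13649 genes tested. *Dbh* did not pass that filter. It was read from a fit of 19366 genes kept by filterByExpr, in which 0.568% were called and *Dbh* was not. DESeq2 and limma-voom also called 0 members. In the CPM-filtered edgeR fit *Ddc* alone had an unadjusted p-value under 0.05, and 4.23% of all tested genes passed that limit with a lower level in the mutant. *Slc6a3* joined *Ddc* with filterByExpr and with limma-voom, and *Slc6a3* and *Chat* did with no filter and under the replicate block. With the CPM filter, 0 members had such a p-value in DESeq2, or in edgeR without *Adar1* E861A replicate 1 or control replicate 2. *Ddc* also lost it in edgeR without *Adar1* E861A replicate 2, where *Slc6a2* and *Chat* had it, and without control replicate 1, where *Chat* had it. *Slc6a2* passed the CPM filter only through the control libraries.

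All 9 log2 fold changes of *Adar1* E861A over control were below 0, from -0.31 for *Chat* to -0.01 for *Th*, with a median of -0.22. The median over all tested genes was -0.001, and 50.5% of them were below 0. The members share libraries and, in part, cells, so this count of signs is a description without a test. It was 7 of 9 without control replicate 1, where *Th* and *Dbh* changed sign, and 8 of 9 under limma-voom and under the replicate block. No member separated the genotypes completely, against 6.66% of tested genes whose mutant libraries were all below the control libraries. Within same-numbered pairs of libraries, 4 of 9 members (*Slc6a3*, *Slc6a2*, *Slc6a4* and *Chat*) were lower in the mutant in all 3 pairs, as were 18.3% of tested genes. *Dbh* was lower in 1 pair and the others in 2.

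**Figure D1:**
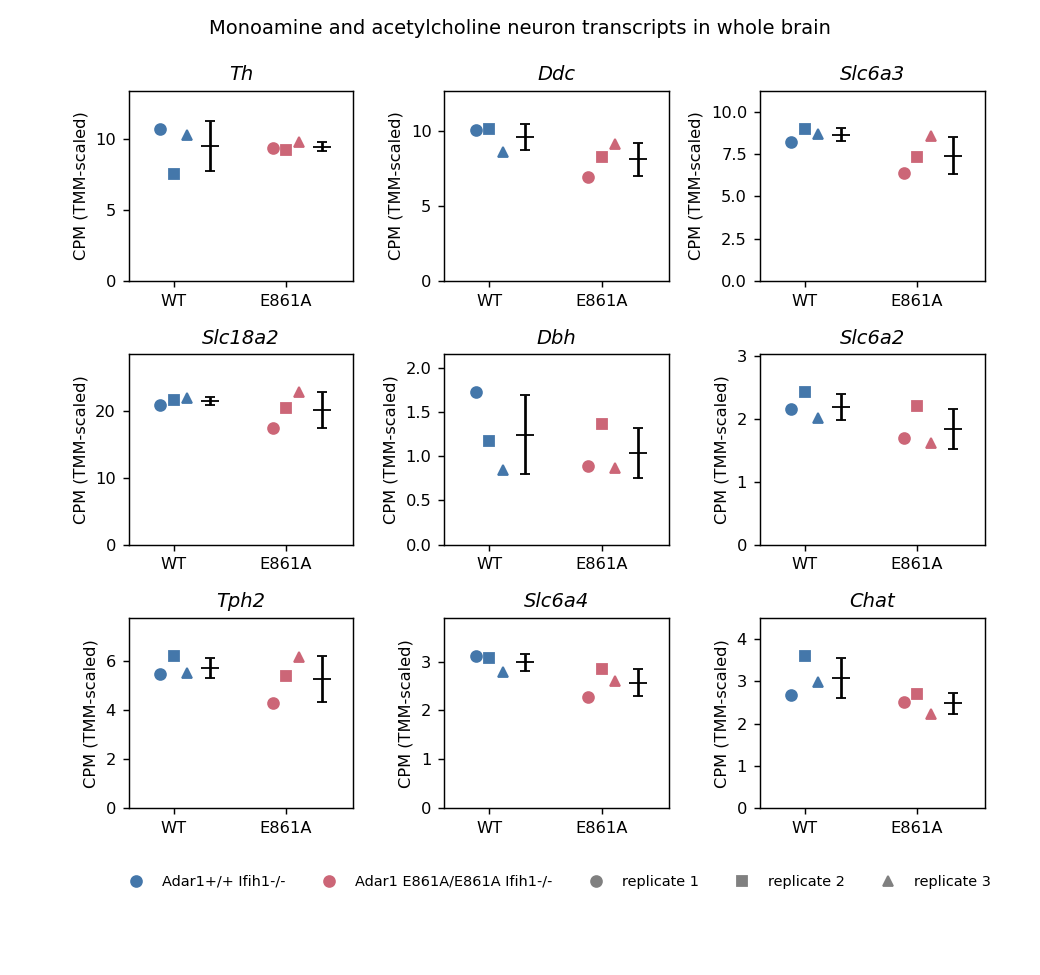
TMM-scaled CPM of the 9 transcripts in each library (points, marked by replicate number) with the mean and SD of each genotype (black, n = 3). The genotypes overlap in every panel, and *Adar1* E861A replicate 1 is the lowest library for *Ddc*, *Slc6a3*, *Slc18a2*, *Tph2* and *Slc6a4*.

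**Figure D2:**
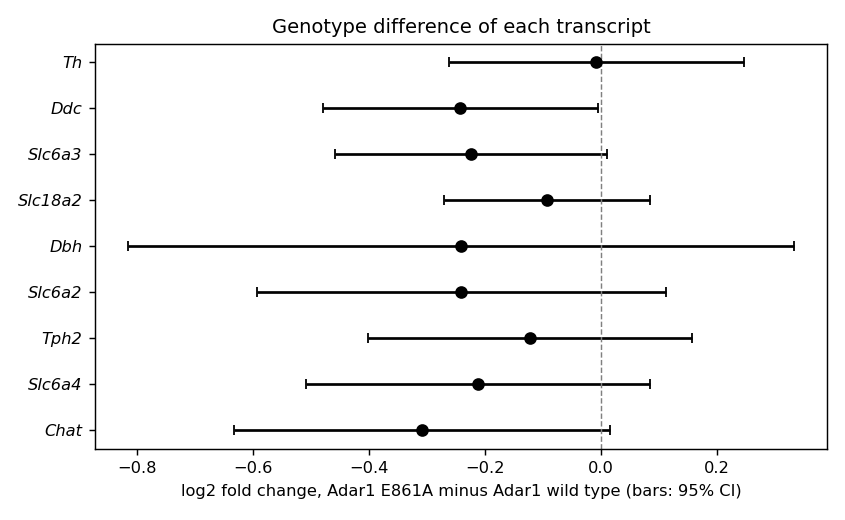
Log2 fold change of *Adar1* E861A over control for each transcript with its 95% confidence interval from the edgeR fit. All 9 estimates lie below 0, and only the interval of *Ddc*, from -0.48 to -0.01, does not reach 0.

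Among the genes of dopamine neurons, *Th* (ENSMUSG00000000214, chromosome 7, 150078657 to 150117033 on NCBIM37, minus strand) encodes the first and limiting enzyme. It was measured at 9.41, 9.25 and 9.82 CPM in *Adar1* E861A replicates 1 to 3 and at 10.75, 7.54 and 10.33 CPM in control replicates 1 to 3. Control replicate 2 was the lowest of the 6 libraries and the other control libraries were the highest, so the mutant values lay inside the control range. The means were 9.49 ± 0.29 and 9.54 ± 1.75 CPM (SD, n = 3). The log2 fold change was -0.01 ± 0.12 (SE), with a 95% interval from -0.26 to 0.25 and an adjusted p-value of 0.99 in edgeR. As ratios of mutant to control, the bounds of the interval were 0.834 and 1.19. The exact two-sided permutation test of 3 against 3 libraries, which cannot give a p-value below 0.1, gave p = 1.

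*Ddc* (ENSMUSG00000020182, chromosome 11, 11714104 to 11798047, minus strand), shared by dopamine, noradrenaline and serotonin neurons, was at 6.93, 8.22 and 9.14 CPM in the mutant and 10.01, 10.12 and 8.55 CPM in the control libraries. Its mutant values reached into the control range only through replicate 3. The level was 15.5% lower in the mutant, or -0.24 ± 0.11 (SE) on the log2 scale, with an unadjusted p-value of 0.0453 and an adjusted p-value of 0.55 in edgeR. The exact permutation test gave p = 0.2.

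*Slc6a3* (ENSMUSG00000021609, chromosome 13, 73674195 to 73716120, plus strand) encodes the dopamine transporter. It was at 6.35, 7.30 and 8.54 CPM in the mutant and 8.21, 8.98 and 8.66 CPM in the control libraries. Mutant replicates 1 and 2 lay below all control libraries and replicate 3 among them. The level was 14.4% lower in the mutant (log2 fold change -0.22 ± 0.11, SE), with an adjusted p-value of 0.569 in edgeR and an exact permutation p-value of 0.2.

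*Slc18a2* (ENSMUSG00000025094, chromosome 19, 59335368 to 59370502, plus strand), the vesicular transporter of all monoamine neurons, was at 17.4, 20.4 and 22.7 CPM in the mutant and 20.8, 21.7 and 21.9 CPM in the control libraries. The mutant held both the lowest and the highest library. Its log2 fold change was -0.09 ± 0.08 (SE), with a 95% interval from -0.27 to 0.08 and an adjusted p-value of 0.775 in edgeR. The libraries varied least for this gene, with a coefficient of variation of 9.00% over 6 libraries and 4210 counts in all.

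The noradrenaline genes had the lowest levels per length of the members. *Dbh* (ENSMUSG00000000889, chromosome 2, 27020753 to 27038720, plus strand) had 26, 49 and 23 counts in the mutant and 63, 44 and 30 counts in the control libraries, equal to 0.883, 1.37 and 0.865 CPM and 1.72, 1.17 and 0.838 CPM. Control libraries supplied the highest and the lowest value. Its spread was the widest of the members, with a coefficient of variation of 30.9% over 6 libraries. The log2 fold change was -0.24 ± 0.27 (SE), with a 95% interval from -0.81 to 0.33 and an adjusted p-value of 0.859 in edgeR, so the ratio could lie between 0.569 and 1.26. Without control replicate 1 the log2 fold change was 0.06.

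*Slc6a2* (ENSMUSG00000055368, chromosome 8, 95483978 to 95525566, plus strand) encodes the noradrenaline transporter and had 50, 79 and 43 counts in the mutant and 79, 91 and 72 counts in the control libraries. The corresponding levels were 1.70, 2.20 and 1.62 CPM and 2.16, 2.42 and 2.01 CPM. Mutant replicate 2 exceeded 2 of the control libraries. The level was 15.4% lower in the mutant (log2 fold change -0.24 ± 0.16, SE), with an adjusted p-value of 0.697 in edgeR. Without mutant replicate 2 the log2 fold change was -0.41 with an adjusted p-value of 0.319 in edgeR, and without control replicate 2 it was -0.16.

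Hindbrain markers were measured beside these genes, because noradrenaline neurons lie in the hindbrain. Whether the markers cover the part of the hindbrain that holds those neurons was not tested. Of 15 hindbrain *Hox* genes listed, 14 had a row and 9 were tested with filterByExpr. Of these, 8 had a log2 fold change below 0, with a median of -0.67, and 0 were called by edgeR. Unadjusted p-values under 0.05 in edgeR were seen for *Hoxc4* (0.024) and *Hoxb5* (0.0421), and for 1575 of the 19366 genes of that fit. The summed level of the 14 *Hox* genes was 2.56 to 5.23 CPM in the mutant and 4.29 to 7.45 CPM in the control libraries, from 92 to 273 counts per library. Control replicate 1, the highest library for the *Hox* genes, was also the highest for *Dbh*, whereas *Slc6a2* was highest in control replicate 2. Mutant replicate 2, the lowest library for the *Hox* genes, was the highest mutant library for *Dbh* and *Slc6a2*. The part of hindbrain content in the noradrenaline values was not tested.

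Among the serotonin genes, *Tph2* (ENSMUSG00000006764, chromosome 10, 114515697 to 114622078, minus strand) encodes the enzyme specific to brain serotonin neurons. It was at 4.31, 5.38 and 6.17 CPM in the mutant and 5.49, 6.21 and 5.53 CPM in the control libraries. Mutant replicate 3 was close to the highest control library and replicate 1 was the lowest of all. The log2 fold change was -0.12 ± 0.13 (SE), with a 95% interval from -0.40 to 0.16 and an adjusted p-value of 0.815 in edgeR.

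*Slc6a4* (ENSMUSG00000020838, chromosome 11, 76812105 to 76845842, plus strand), the serotonin transporter, was at 2.28, 2.84 and 2.60 CPM in the mutant and 3.11, 3.06 and 2.79 CPM in the control libraries. The genotypes overlapped by a single pair of libraries, mutant replicate 2 and control replicate 3. The level was 13.7% lower in the mutant (log2 fold change -0.21 ± 0.14, SE), with an adjusted p-value of 0.681 in edgeR and an exact permutation p-value of 0.2. *Tph1*, the tryptophan hydroxylase of the pineal gland and the periphery, had 2 to 10 counts per library.

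*Chat* (ENSMUSG00000021919, chromosome 14, 33221389 to 33279095, minus strand), the gene of acetylcholine synthesis, had the largest estimated difference of the members. It was at 2.51, 2.70 and 2.22 CPM in the mutant and 2.67, 3.60 and 2.99 CPM in the control libraries. Mutant replicate 2 and control replicate 1 were nearly equal, and all other mutant libraries lay below the controls. The level was 19.3% lower in the mutant, or -0.31 ± 0.15 (SE) on the log2 scale, with a 95% interval from -0.63 to 0.02. The adjusted p-value in edgeR was 0.573 and the exact permutation p-value was 0.2. Control replicate 2 carried much of the difference, and without it the log2 fold change was -0.18.

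*Slc18a3*, which had no row, is embedded in *Chat*. Its RefSeq promoter matched NCBIM37 at 1 place, chromosome 14, 33277987 to 33278286 on the minus strand. This puts its start at 33278036, inside intron 1 of *Chat* (33274100 to 33278992). Reads of *Slc18a3* would have entered the *Chat* count only where they fell on annotated *Chat* exons, and the vesicular transporter has no value here. *Chat*, *Ddc* and *Slc6a4* each overlap a gene on the opposite strand, with 0 shared exon bases.

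*Adar1* E861A replicate 1 was the lowest of the 6 libraries for *Ddc*, *Slc6a3*, *Slc18a2*, *Tph2* and *Slc6a4*. Without it, the log2 fold change was -0.15 for *Ddc*, -0.13 for *Slc6a3* and -0.13 for *Slc6a4*. It was nearly 0 for *Slc18a2*, at -0.0009, and for *Tph2*, at -0.0017. The differences of *Chat* and *Slc6a2* without this library were -0.32 and -0.18. Leaving out *Adar1* E861A replicate 3 instead, the highest mutant library for the first 4 of these genes, gave -0.33 for both *Ddc* and *Slc6a3*, -0.18 for *Slc18a2* and -0.24 for *Tph2*. *Adar1* E861A replicate 1 held the pituitary transcripts: 7 of 8 listed pituitary genes had a row, their summed level was 435 CPM there, and it was 1.31 to 3.62 CPM in the others. *Prl*, which encodes prolactin, had 3274 counts there and 0 to 12 elsewhere. The part of pituitary tissue in the low values of this library was not tested.

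The members' levels were compared with each other only per length, as TMM-scaled CPM divided by the exon length in kilobases (RPKM). *Slc18a2* was the most abundant at 5.48 ± 0.49 RPKM (SD, n = 6), and its range lay above that of *Th* at 4.03 ± 0.47 RPKM. *Th* in turn lay above *Slc6a3* in all 6 libraries, with 2.32 ± 0.29 RPKM for *Slc6a3*. The levels of *Slc6a3*, *Ddc* (2.03 ± 0.28 RPKM) and *Tph2* (1.92 ± 0.24 RPKM) overlapped from one to the next. *Chat* followed at 0.990 ± 0.168 RPKM and *Slc6a4* at 0.614 ± 0.069 RPKM, each separated from the neighbour above. *Dbh*, at 0.424 ± 0.131 RPKM, overlapped with both *Slc6a4* and *Slc6a2*, the least abundant at 0.327 ± 0.050 RPKM.

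Measured against the whole brain transcriptome, these were low to middling levels per length. Of 19366 genes kept by filterByExpr, 59.3% had a lower mean RPKM than *Slc18a2* and 51.1% a lower one than *Th*. The share was 35.1% for *Tph2*, 23.5% for *Chat* and 8.45% for *Slc6a2*.

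**Figure D3:**
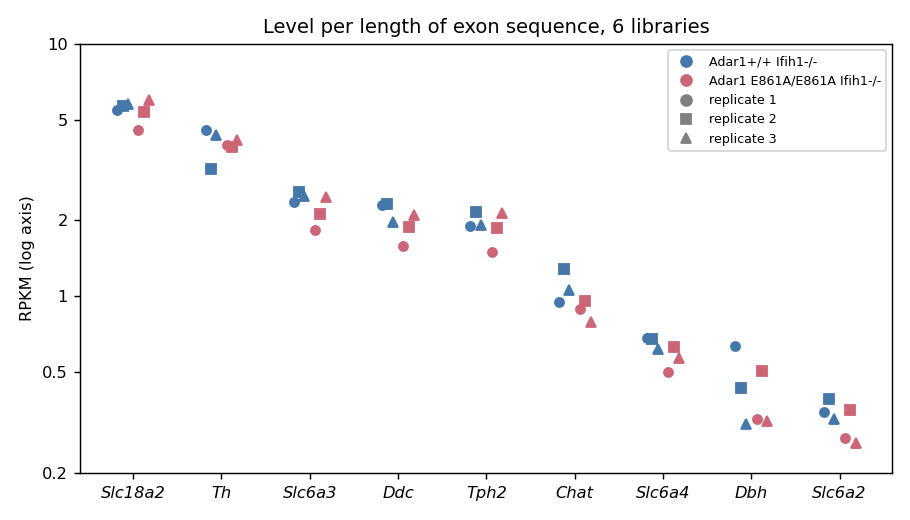
Level per length of exon (RPKM, log axis) of the 9 transcripts in all 6 libraries, ordered by their mean. *Slc18a2*, *Th*, the group of *Slc6a3*, *Ddc* and *Tph2*, and *Chat* form separate steps, and the noradrenaline genes are at the bottom.

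Whether genes of the same neurons rose and fell together among libraries was asked for 4 pairs. The planned pair of *Chat* with *Slc18a3* could not be formed. *Th* and *Slc6a3* had Pearson's r = -0.123 (exact permutation p = 0.782) and Spearman's rho = -0.0857 (exact permutation p = 0.919) over 6 libraries. *Th* and *Ddc* had r = -0.153 (exact permutation p = 0.778) and rho = 0.0286 (exact permutation p = 1). Without the 2 libraries farthest from the median of *Th*, r was 0.788 and 0.513, so the sign of both turned.

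*Dbh* and *Slc6a2* had r = 0.657 (exact permutation p = 0.178) and rho = 0.6 (exact permutation p = 0.242), and r = 0.797 without the 2 farthest libraries. *Tph2* and *Slc6a4* had r = 0.673 (exact permutation p = 0.151) and rho = 0.314 (exact permutation p = 0.564). The serotonin pair rested on single libraries, since r was -0.751 without the 2 farthest and -0.204 without *Adar1* E861A replicate 1. After Benjamini-Hochberg adjustment over the 4 pairs, the permutation p-values of r were 0.356 to 0.782.

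*Th* departed from the other dopamine genes in control replicate 2. The ratio of *Th* to *Slc6a3* per length was 1.23 there and 1.68 to 2.17 in the other libraries, and that of *Th* to *Ddc* was 1.37 against 1.98 to 2.5. Markers of the olfactory bulb were low in the same library. They comprised *Tbx21* and *Eomes*, transcription factors of mitral and tufted cells, with *Cdhr1*, *Doc2g* and *Nmb*. Their summed level was 33.2, 33.9 and 42.8 CPM in mutant replicates 1 to 3 and 53.4, 25.9 and 49.5 CPM in control replicates 1 to 3. Control replicate 2 was the lowest for the bulb markers and for *Th*, and control replicates 1 and 3 were the highest for both.

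Over the 6 libraries, log2 *Th* followed the log2 marker sum with Pearson's r = 0.945 and Spearman's rho = 0.943. The relation was examined because of these values, so it is a description of these libraries without a test. Without the 2 libraries farthest from the median of the marker sum, r was 0.976. For deviations from the genotype means it was 0.98. The other 8 members had r from -0.453 for *Chat* to 0.28 for *Slc18a2*. Of 19365 other genes, 68 followed *Th* more closely than *Cdhr1* did, at r = 0.943. The number was 140 for *Doc2g*, 236 for *Nmb*, 339 for *Eomes* and 358 for *Tbx21*, and 11984 for *Slc6a3*.

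**Figure D4:**
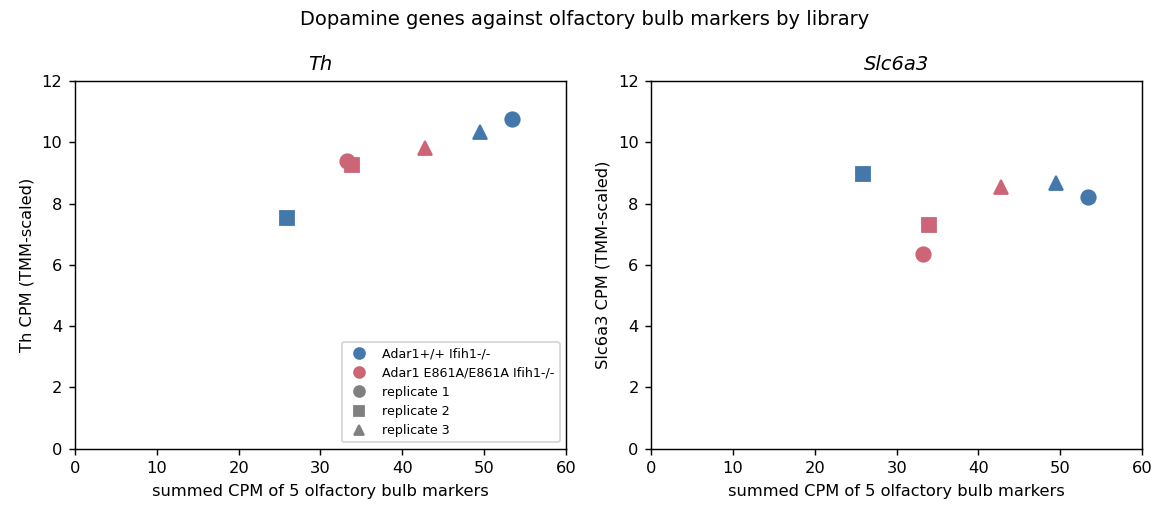
CPM of *Th* (left) and of *Slc6a3* (right) against the summed CPM of 5 olfactory bulb markers in the 6 libraries, coloured by genotype and marked by replicate. *Th* is lowest in control replicate 2, where the marker sum is 25.9 CPM, and highest in control replicate 1, where it is 53.4 CPM, while *Slc6a3* shows no such order (r = 0.199).

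None of the 5 bulb markers was called by edgeR with filterByExpr, and all 5 had a log2 fold change below 0, from -0.40 for *Tbx21* to -0.15 for *Eomes*. Without control replicate 2, the library low in bulb markers, the log2 fold change of *Th* was -0.15 with an adjusted p-value of 0.75 in edgeR. The part of bulb content in the *Th* values was not tested.

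The genes most like *Th* by Pearson's r of log2 CPM over 6 libraries, of 19365 compared, were *Slco5a1* (r = 0.993), *Lgr6* (r = 0.99) and *Clca3a1* (r = 0.989). For *Tph2* they were *Nrn1* (r = 0.996), *Rps27l* (r = 0.993) and ENSMUSG00000082803 (r = 0.99), which has no symbol in the files and a mean of 0.301 CPM. For *Chat* they were *Mettl7a1* (r = 0.995), *Hhatl* (r = 0.993) and *Napa* (r = 0.987). With 6 libraries and this many genes, such values describe these libraries only. *Slc18a2* and *Slc6a3* were close to *Tph2* as well, at r = 0.947 and 0.921, and 63 and 127 genes were closer. Its transporter *Slc6a4* was farther, with 1486 genes closer.

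The wider pathway was read from 8 lists of 79 genes, of which 78 had a row. In the CPM-filtered fit 49 were tested and edgeR called 0, as did DESeq2 and limma-voom. Of the 49, 3 had an unadjusted p-value under 0.05 in edgeR, as did 1230 of all 13649 genes tested. In the filterByExpr fit 71 were tested and edgeR called 0. The median log2 fold change of the 49 was -0.04, with 37 below 0 and 12 above 0. Among them *Htr6* and *Gata3* passed the filter only through the control libraries, and *Chrna5* only through the mutant libraries.

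Cofactor and breakdown genes were nearly level between genotypes. They include *Qdpr*, which regenerates the tetrahydrobiopterin needed by *Th* and *Tph2*, and the monoamine oxidases. Of 12 listed, 9 passed the CPM filter, with a median log2 fold change of -0.03. *Qdpr* was at 96.4 ± 7.15 CPM in the mutant and 99.6 ± 4.49 CPM in control brain (SD, n = 3). *Pcbd1*, another enzyme of the cofactor cycle, differed most by estimate, at -0.27 ± 0.16 (SE) on the log2 scale with an adjusted p-value of 0.637 in edgeR.

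Transcription factors of aminergic neurons had the lowest median log2 fold change of the 8 lists, at -0.24 over the 4 that passed the CPM filter. Of 13 listed, 10 were tested with filterByExpr, 10 had a log2 fold change below 0 and 0 were called by edgeR. Their summed level was 58.1 to 61.6 CPM in the mutant and 66.0 to 74.9 CPM in the control libraries. *Nr4a2* and *En2* supplied most of this sum in every library, and both are also expressed outside aminergic neurons. The sum therefore says little about scarce factors specific to these neurons, such as *Fev*. *Nr4a2*, a factor of midbrain dopamine neurons that cortical and claustral neurons also express, was at 35.0, 34.3 and 37.4 CPM in the mutant and 43.2, 37.6 and 40.6 CPM in the control libraries, which is -0.19 ± 0.06 (SE) on the log2 scale (edgeR adjusted p = 0.359). *Gata2*, a factor of serotonin and midbrain GABA neurons, was at 2.15 ± 0.14 and 2.88 ± 0.41 CPM (SD, n = 3). Its difference was -0.42 ± 0.15 (SE) on the log2 scale (edgeR adjusted p = 0.439).

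*En2*, a midbrain and cerebellar factor singled out after its values were seen, was at 16.6, 13.6 and 14.9 CPM in the mutant and 19.9, 17.2 and 17.9 CPM in the control libraries. The genotypes did not overlap, and this also held for *Nr4a2* and *Gata2*, so for 3 of the 13 factors listed. In other lists, 1 of 12 cofactor and breakdown genes, 2 of 11 cholinergic genes and 1 of 9 nicotinic subunits were lower without overlap. Of the 9 adrenergic receptors 1 was higher without overlap, and the dopamine, serotonin and muscarinic receptors had 0 such genes. Of the 13649 genes that passed the CPM filter, 6.66% were lower in all mutant libraries, whereas the lists also hold genes that did not pass it. The log2 fold change of *En2* was -0.29 ± 0.08 (SE) and its adjusted p-value was 0.261 in edgeR and 0.16 with filterByExpr. Under the replicate block the adjusted p-value of *En2* was 0.0394, and without a filter on low counts it was 0.013. In the CPM-filtered fit, the alternatives that left out a library or changed the tool gave 0.125 to 0.829. *En2* is also expressed by granule cells of the cerebellum.

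The other cholinergic genes that were tested had estimates below 0 but nearer 0 than that of *Chat*, a difference between genes that was not tested. *Slc5a7*, the high-affinity choline transporter of the same neurons, was at 13.3, 13.2 and 13.1 CPM in the mutant and 12.9, 13.4 and 14.0 CPM in the control libraries. *Ache*, which encodes the enzyme that breaks acetylcholine down, had a log2 fold change of -0.01. Of 12 listed, 8 passed the CPM filter and 0 were called, with a median of -0.06. All 8 were below 0, as were 50.5% of all tested genes. *Ngfr*, the neurotrophin receptor of basal forebrain cholinergic neurons, had the largest estimate at -0.27 ± 0.13 (SE), with an adjusted p-value of 0.573 in edgeR. *Slc44a1*, a broadly expressed choline transporter, was at 81.2 ± 3.39 and 83.5 ± 2.48 CPM (SD, n = 3).

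Receptors for these transmitters are made by many target neurons and gave no call either. *Drd1*, the D1 dopamine receptor of striatal neurons, was at 35.1 ± 2.19 CPM in the mutant and 32.7 ± 2.21 CPM in control brain (SD, n = 3), and *Drd3* had the largest estimate of its list with filterByExpr at 0.31. Of the serotonin receptors 10 passed the CPM filter, with a median log2 fold change of -0.01. *Htr2c*, a known target of RNA editing, was at 69.2 ± 7.80 and 73.2 ± 4.05 CPM (SD, n = 3), and *Htr6* had the largest estimate at -0.35 ± 0.17 (SE), with an adjusted p-value of 0.563 in edgeR. *Htr6* passed the CPM filter only through the control libraries, and with filterByExpr its estimate was -0.353. The adrenergic receptors lay on both sides of 0, with 5 of 9 above it in the filterByExpr fit. *Adra1a* and *Adra1b* had log2 fold changes of -0.02 and -0.12, and *Adra2b* had the largest estimate at 0.35 ± 0.19 (SE), with an adjusted p-value of 0.655 in edgeR. The muscarinic receptors *Chrm1* and *Chrm4* had log2 fold changes of -0.11 and -0.13, and *Chrm5* was at 0.22 with filterByExpr. The 4 that passed the CPM filter were all below 0, with a median of -0.10. Among the nicotinic subunits, *Chrnb2* was at -0.05 and *Chrna3*, a subunit of the medial habenula, at -0.23 on the log2 scale.

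**Figure D5:**
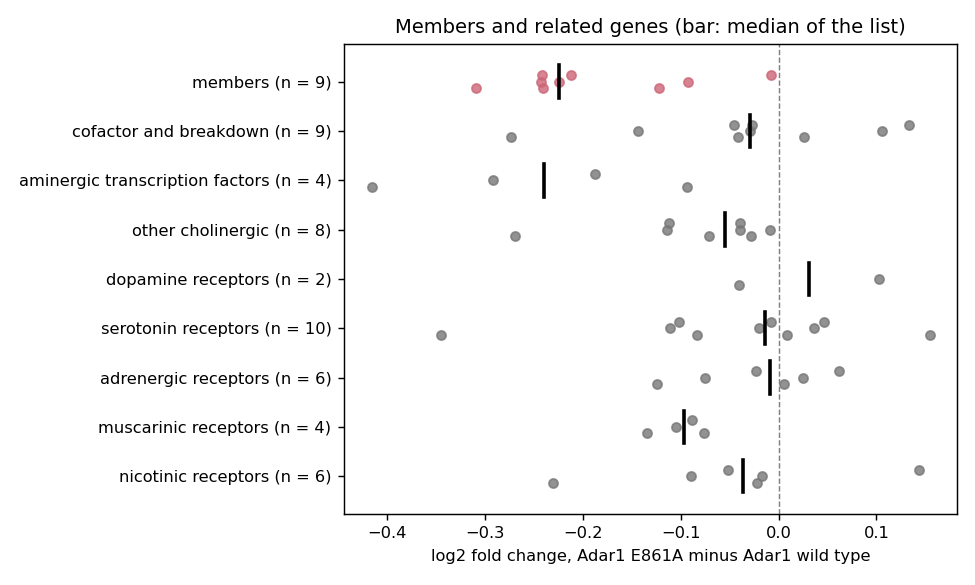
Log2 fold change of *Adar1* E861A over control for the 9 members (red) and for the genes of 8 related lists that passed the CPM filter (grey), with the median of each list as a bar. The members' median is -0.22, that of the 4 transcription factors is -0.24, and the receptor lists range from -0.10 (muscarinic) to 0.03 (dopamine). No gene shown was called.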

How the data were processed

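The authors trimmed 75-base paired reads with Trimmomatic 0.36, aligned them to NCBIM37 with STAR 2.5.2a and deposited raw counts per gene, 1 column per library. The strand column counted is not given in the sources used here. Deposited CPM and fold-change tables were not used. Gene identifiers of all 37310 rows were found in GENCODE vM1, which gave coordinates and exon lengths. Counts were tested in R 4.3.3 with edgeR 4.0.16 (TMM, quasi-likelihood, no covariates, library size as column total, Benjamini-Hochberg over all tested genes). DESeq2 1.42.0, limma-voom (limma 3.58.1), RLE factors, no filter, the replicate block and omission of each library were alternatives. Log2 CPM used a prior count of 2. Scripts were tested on simulated data. Genotypes and replicate numbers came from the labels. Deviations of same-numbered libraries correlated at r of 0.221, 0.329 and 0.112, which met the limit set for pairing, whose source is unstated. The printed fits and permutation tests were unpaired, and the replicate block was an alternative. Intervals cover the spread between 3 animals only. The members and lists were chosen with earlier results of these data known. Named from the related lists were the gene with the largest estimate in each fit and the one with the highest mean CPM, plus, for *Th*, *Tph2* and *Chat*, the 3 genes most alike, and exceptions stated as such. One gene that the rule names is not reported here. A line of the design text on fetal tissue disagrees with the sample labels, which give adult brain.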

Additional observations from a re-analysis of the deposited data

How the results depend on the processing

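No member was called under any of 107 combinations of member and alternative, where the lowest adjusted p-value was 0.279, and 6 changed sign. In the filterByExpr fit under the block it was 0.277, for *Slc6a3*. *Th* was at 0.0094 with limma-voom, 0.0072 with the replicate block, and 0.0093, 0.0891 and 0.0526 without *Adar1* E861A replicate 2, control replicate 1 and control replicate 3, on the log2 scale. Its lowest value was -0.153, without control replicate 2. *Dbh* was at 0.0594 without control replicate 1 and at -0.52 without *Adar1* E861A replicate 2. The number of genes called across the transcriptome, 69, became 376 without a filter, 110 with filterByExpr and 158 with the replicate block, and 42 to 113 when 1 library was left out, with 42 without *Adar1* E861A replicate 3. In the filterByExpr fit, 110 became 376 without a filter, 233 with the replicate block and 62 to 189 when 1 library was left out. The block gave no other call among the members and changed that of *En2* alone among the related genes. Leaving out 1 library moved r from -0.263 to 0.697 for *Th* and *Slc6a3*, from -0.507 to 0.749 for *Th* and *Ddc*, and from -0.204 to 0.916 for *Tph2* and *Slc6a4*. The high values of both *Th* pairs came without control replicate 2 and the low value of the serotonin pair without *Adar1* E861A replicate 1. CPM from column totals moved 0 of 18 mean levels by more than 1 SD. Causes were not tested. The noradrenaline genes rested on 23 to 91 counts per library.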

Other observations

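Monoamine genes known mainly from peripheral tissues were measured as well. *Slc18a1*, the vesicular monoamine transporter of endocrine cells, was at 0.912 CPM in *Adar1* E861A and 0.793 CPM in control brain, and *Pnmt*, which makes adrenaline, was at 0.0598 and 0.0728 CPM. The pineal and peripheral *Tph1* was at 0.194 ± 0.134 and 0.172 ± 0.053 CPM (SD, n = 3). Among factors of the aminergic nuclei, *Fev*, specific to serotonin neurons, was at 0.275 and 0.292 CPM, and *Pitx3*, of midbrain dopamine neurons, was at 0.091 and 0.119 CPM. Counts per library were 2 to 14 for *Fev*, 1 to 6 for *Pitx3* and 0 to 4 for *Pnmt*. In these libraries 3 counts equal 0.0788 to 0.112 CPM, so the levels of *Pnmt* and *Pitx3* lie at or near the floor. *Fev* and *Tph1* fell below it in *Adar1* E861A replicates 1 and 3, respectively. *Slc18a1*, with 23 to 33 counts per library, lay above it.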
